A study of Mus musculus with 2 samples.

Results

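Sox5, Sox6, Sox8 and Sox9 are transcription factor genes of the Sox family with roles in cartilage, and they were followed in total RNA from mouse limb at embryonic day 14.5. They were taken by symbol from the gene tables and are 4 of 43346 annotated genes, with 23 of 103639 annotated transcripts. The study holds 1 group with 2 libraries, named replicate 1 and replicate 2. Both samples are limb tissue of strain B6NCrl, with no genetic change or treatment named, and each is given as 4 limbs of 1 pup although the sex is listed as pooled. The labels give them the same donor identifier and equal pup and pregnancy numbers but different collection days, so whether they are independent animals is not settled, and every SD over n = 2 may measure less than the spread between animals. Each library was prepared from 10 ng of RNA above 200 nt. Expected counts are reads estimated per gene or spike-in. With spike-ins they summed to 32879425 in replicate 2 and 34193161 in replicate 1. Over the annotated genes they summed to 31170323 in replicate 2 and 32384779 in replicate 1. No comparison of conditions exists, and a test between the libraries compares those libraries. Levels are given in TPM, a measure per length that allows genes to be set side by side, as the mean ± SD over n = 2.

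Sox proteins bind DNA through an HMG box, which bends the double helix at the bound site. Sox9, of the SoxE subgroup, is required for mesenchymal cells to become chondrocytes and switches on the genes of the cartilage matrix. Sox5 and Sox6, of the SoxD subgroup, carry no activation domain of their own, pair through a coiled coil in their long forms and increase Sox9 activity on the enhancers of those genes, so the 3 are often called the Sox trio. Sox8 is a close relative of Sox9 with overlapping expression in the limb. None of them is limited to cartilage. Sox6 also acts in red cell precursors and skeletal muscle, Sox8 in glia and muscle satellite cells, and Sox9 in hair follicles and in the progenitors of tendon attachments.

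The long forms of Sox5 and of Sox6 come with and without an internal coding exon, shown here. The exons set Sox5-201 apart from the other long Sox5 forms, and Sox6-203 and Sox6-201 from the other Sox6 forms. The Sox5 exon (mm10, chr6:143907387-143907533, minus strand) is 147 nt long, codes for 49 amino acids and is exon 9 of the 15 exons of Sox5-201. The Sox6 exon (mm10, chr7:115579016-115579138, minus strand) is 123 nt long, codes for 41 amino acids and is exon 10 of the 17 exons of Sox6-201. Capitals mark the exon, and the 20 nt on each side in lower case belong to the neighbouring exons of the spliced RNA.
Sox5 exon: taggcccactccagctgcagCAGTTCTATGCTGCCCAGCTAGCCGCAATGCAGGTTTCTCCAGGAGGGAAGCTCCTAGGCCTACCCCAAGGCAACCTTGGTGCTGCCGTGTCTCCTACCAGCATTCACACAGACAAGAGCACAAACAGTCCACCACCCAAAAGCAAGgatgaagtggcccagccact
Sox6 exon: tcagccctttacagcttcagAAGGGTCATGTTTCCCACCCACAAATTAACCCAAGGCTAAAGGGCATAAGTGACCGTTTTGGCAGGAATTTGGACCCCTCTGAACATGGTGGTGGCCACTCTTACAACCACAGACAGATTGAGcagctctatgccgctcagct

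Promoter windows of 300 bases, 250 before and 50 after an annotated start, came from RefSeq on GRCm38.p6. The 4 windows shown belong to the 3 Sox6 starts with the highest levels and to the internal Sox5 start from which the short Sox5 form is annotated. Capitals mark CG dinucleotides. All lie on the minus strand, at chr7:116038695-116038994 for Sox6-204, chr7:116030998-116031297 for Sox6-202, chr7:115846091-115846390 for Sox6-203 and chr6:143947057-143947356 for the internal Sox5 start.
Sox6-204 window: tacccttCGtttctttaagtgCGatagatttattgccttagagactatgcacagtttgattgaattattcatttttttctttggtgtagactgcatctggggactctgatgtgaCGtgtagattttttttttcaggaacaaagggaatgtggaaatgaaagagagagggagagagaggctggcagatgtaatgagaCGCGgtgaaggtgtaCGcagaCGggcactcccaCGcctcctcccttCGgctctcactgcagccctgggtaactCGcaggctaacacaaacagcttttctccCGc
Sox6-202 window: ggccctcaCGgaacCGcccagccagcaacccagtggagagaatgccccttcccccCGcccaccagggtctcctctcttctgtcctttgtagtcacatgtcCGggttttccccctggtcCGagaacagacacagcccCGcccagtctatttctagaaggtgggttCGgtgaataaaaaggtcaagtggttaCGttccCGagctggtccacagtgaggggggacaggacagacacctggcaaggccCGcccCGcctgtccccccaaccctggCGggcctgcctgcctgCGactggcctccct
Sox6-203 window: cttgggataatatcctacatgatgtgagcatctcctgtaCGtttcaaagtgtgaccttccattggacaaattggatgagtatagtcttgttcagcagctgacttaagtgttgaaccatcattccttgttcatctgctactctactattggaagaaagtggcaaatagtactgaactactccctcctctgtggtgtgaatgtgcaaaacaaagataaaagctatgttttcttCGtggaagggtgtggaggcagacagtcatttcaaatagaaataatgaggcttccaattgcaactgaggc
Sox5 internal start window: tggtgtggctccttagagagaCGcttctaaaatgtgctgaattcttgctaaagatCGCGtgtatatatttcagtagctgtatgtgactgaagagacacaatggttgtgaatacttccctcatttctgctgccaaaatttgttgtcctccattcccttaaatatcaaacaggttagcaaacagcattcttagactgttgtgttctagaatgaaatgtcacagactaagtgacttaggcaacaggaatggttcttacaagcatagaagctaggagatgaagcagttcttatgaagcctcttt

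The windows of the upstream Sox6 starts held 11 CG dinucleotides for Sox6-204 and 13 for Sox6-202, with a GC content of 47.0% and 63.3%. The windows of Sox6-203 and of the internal Sox5 start held 2 and 3, with a GC content of 41.0% and 39.7%. The median over 32851 RefSeq promoters was 7 CG dinucleotides and 52.7% GC. The Sox8 window (chr17:25570637-25570936, minus strand) held the most of those matched, 21 CG dinucleotides with 66.3% GC. On both strands, AACAAT, a core sequence bound by Sox proteins, was in none of the 4 windows printed, and it occurred 2 times in the window of the low Sox6-205 start (chr7:115824661-115824960). It is present in 10.7% of all promoters. TATAAA was not found in the 4 windows either, against 13.6% of all promoters, and these counts describe the letters of each window alone.

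Sox9 (ENSMUSG00000000567, mm10 chromosome 11, 112782224 to 112787760, plus strand) was the most abundant of the 4 genes. It stood at 102 TPM in replicate 2 and 75.6 in replicate 1, a mean of 88.6 ± 18.5 TPM. This put it at rank 1608 among 21474 protein-coding genes, of which 13191 reached 1 TPM in both libraries. Sox5 (ENSMUSG00000041540, chromosome 6, 143828425 to 144781977, minus strand) stood at 27.5 TPM in replicate 2 and 23.3 in replicate 1, with a mean of 25.4 ± 2.93 TPM and rank 5389. Sox6 (ENSMUSG00000051910, chromosome 7, 115470872 to 116038796, minus strand) stood at 12.6 TPM in replicate 2 and 10.8 in replicate 1, with a mean of 11.7 ± 1.24 TPM. Sox8 (ENSMUSG00000024176, chromosome 17, 25565892 to 25570686, minus strand) stood at 10.0 TPM in replicate 2 and 13.0 in replicate 1, with a mean of 11.5 ± 2.13 TPM. The gene-level order was therefore Sox9, then Sox5, then Sox6 and Sox8, whose ranges overlapped and which exchanged places between the libraries. By their means they held ranks 8310 and 8357. All 4 genes passed 1 TPM in both libraries. The expected counts of all 4 were whole to within 0.005 in both libraries, as they were for 69.7% of the 19153 genes tested, so no fraction of a read shared with another gene was visible in them.

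Among the 20 Sox genes of the annotation, 12 reached 1 TPM in both libraries and 7 stayed below it in both. The highest were Sox11 at 92.6 ± 19.8 TPM, Sox9, and Sox4 at 70.6 ± 11.5 TPM. The ranges of these 3 overlapped, but each library put them in this same order. Sox11 and Sox4, SoxC factors of embryonic progenitors, were together with Sox12 the largest subgroup, at a summed 175 ± 33.2 TPM. The SoxE genes summed to 106 ± 15.6 TPM, nearly all of it Sox9 and Sox8, since Sox10, the factor of Schwann cells and melanoblasts, stood at 6.27 ± 0.714 TPM. The SoxD genes summed to 41.1 ± 4.78 TPM, with Sox13, the other SoxD gene, at 4.04 ± 0.608 TPM. The SoxF genes of endothelium summed to 42.6 ± 0.488 TPM. Of these, Sox18, at 28.4 ± 0.905 TPM, lay just above Sox5 in both libraries, while Sox7 and Sox17 stood at 7.16 ± 0.297 and 7.04 ± 0.714 TPM. Sox12, at 11.8 ± 1.94 TPM, overlapped in range with Sox6 and Sox8. Sox15 stood at 0.790 TPM in replicate 2 and 2.34 in replicate 1. Sox21, Sox30, Sox2, Sox3 and Sox14 had means between 0.0350 and 0.575 TPM, and Sox1 and Sry were listed at 0 in both libraries.

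**Figure D1:**
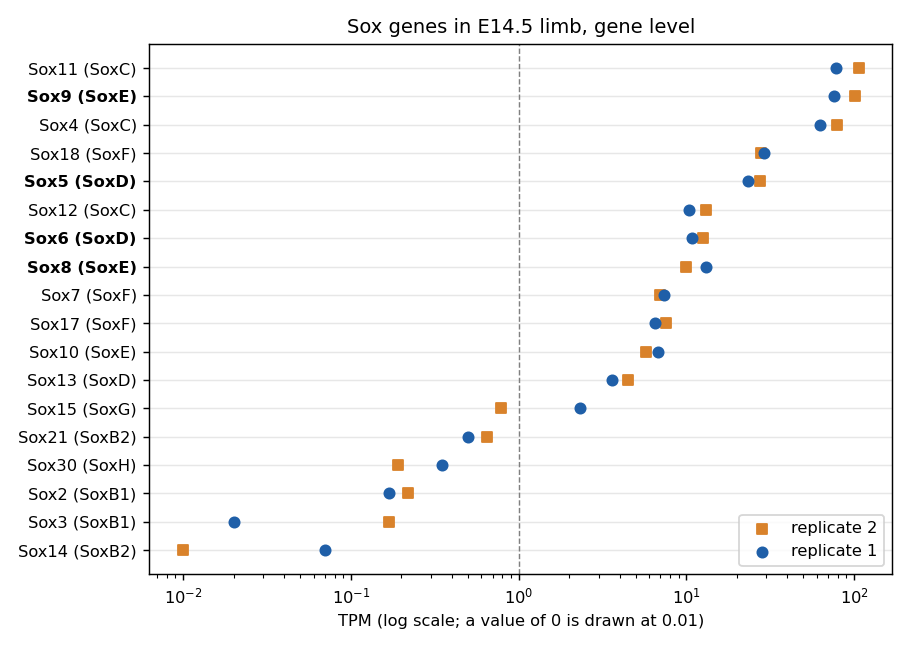
Gene-level TPM (horizontal log axis) of the Sox genes above 0, 1 point per library, with the 4 cartilage Sox genes in bold and the subgroup in parentheses; the dashed line marks 1 TPM. Sox9 lies beside Sox11 and Sox4 at the top, Sox5 lies below Sox18, and Sox6, Sox8 and Sox12 overlap between 10.0 and 13.1 TPM.

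Within the SoxE subgroup, Sox9 exceeded Sox8 in both libraries. The log2 ratio of Sox9 over Sox8, on log2(TPM + 0.1), was 3.33 in replicate 2 and 2.53 in replicate 1, a mean of 2.93 ± 0.57 or 7.61-fold. Sox9 also exceeded the sum of its SoxD partners, by 1.24 ± 0.14 on the log2 scale, which is 2.37-fold. An exact sign-flip test over 2 libraries cannot go below p = 0.5, so these ratios carry no p-value. Sox9 stood 10.0-fold above Sox8 in replicate 2 and 5.76-fold in replicate 1.

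The order of Sox6 and Sox5 depended on which transcripts were counted. At gene level the log2 ratio of Sox6 over Sox5 was −1.11 ± 0.01, so Sox5 stood 2.16-fold above Sox6 in TPM. Long coding forms, defined as transcripts with at least 80% of the longest coding length of the gene, reversed it: they held 12.6 TPM of Sox6 against 6.07 TPM of Sox5 in replicate 2, and 10.8 TPM of Sox6 against 4.97 TPM of Sox5 in replicate 1. The log2 ratio of Sox6 over Sox5 was then 1.07 ± 0.05, or 2.10-fold. Read counts per kb of the longest transcript put the pair nearly level, at 201 for Sox6 against 187 for Sox5 in replicate 2 and 184 for Sox6 against 168 for Sox5 in replicate 1. For long forms alone the log2 ratio of Sox9 over Sox5 plus Sox6 was 2.35 ± 0.13, which is 5.09-fold. Both of these countings were chosen after the values were seen.

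Much of the Sox5 TPM lay in short annotated fragments. Of the 14 Sox5 transcripts, 3 are shorter than 700 nt and lack a complete coding region, and together they held 15.6 TPM in replicate 2 and 12.4 in replicate 1. This was 56.9% and 53.0% of the Sox5 TPM in those libraries, but they held 10.3% and 10.4% of its reads, 140 and 127 expected counts. Sox5-208, of 351 nt and no coding region, stood at 7.18 TPM in replicate 2 and 4.37 in replicate 1. Sox5-211, of 669 nt with an incomplete coding region, stood at 5.48 TPM in replicate 2 and 4.30 in replicate 1. Sox5-213, a retained-intron transcript of 633 nt, stood at 2.97 TPM in replicate 2 and 3.70 in replicate 1. Without these 3 the remaining Sox5 transcripts held 11.8 TPM in replicate 2 and 11.0 in replicate 1, about level with Sox6, and the log2 ratio of Sox6 over Sox5 was 0.034 ± 0.077 (chosen after the values were seen). The other transcripts outside the long forms held 5.75 TPM in replicate 2 and 6.0 in replicate 1, and they too are left out when long forms alone are counted. Whether reads of either set belong to longer Sox5 RNAs was not tested.

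The 4 long Sox5 forms, which encode the coiled coil protein used in chondrocytes, held 21.7 ± 0.579% of the Sox5 TPM and 67.1 ± 1.75% of its expected counts. Sox5-201, which encodes the longest protein at 763 amino acids, stood at 3.12 TPM in replicate 2 and 2.03 in replicate 1. Sox5-205, of 679 amino acids, stood at 0.170 TPM in replicate 2 and 2.54 in replicate 1, and Sox5-214, of 714 amino acids, at 1.45 TPM in replicate 2 and 0 in replicate 1. Sox5-202, of 715 amino acids, stood at 1.33 TPM in replicate 2 and 0.400 in replicate 1. The sum of the 4 forms was steadier than its parts, which moved in opposite directions between the libraries. The deposited credibility intervals of each of these 4 forms overlapped between the libraries, so how the sum divides among them was not resolved at this depth.

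No signal was assigned to the complete short Sox5 form, Sox5-204. Sox5-204 starts inside the gene, 835 kb after the first annotated start, shares the last coding base of the long forms and encodes 392 amino acids without the coiled coil part; such a short form is known from mouse testis. It was listed at 0 in both libraries, with an upper credibility bound of 0.215 TPM in replicate 2 and 0.233 in replicate 1. The deposited model of Sox5-204 is 6144 nt long and the matched later model 1734 nt. Its level and its coding length thus come from models of unlike length. Sox5-206, an incomplete model from the same start, was also listed at 0. Sox5-211, the other incomplete coding model there, shares the first coding base of Sox5-204. It stood at 5.48 TPM in replicate 2 and 4.30 in replicate 1. Whether its reads come from a short form or from longer Sox5 RNAs was not tested. The 7 Sox5 transcripts with no coding region held 59.1 ± 1.67% of the TPM and 28.2 ± 1.99% of the expected counts. Beside the fragments already named, Sox5-207, a retained-intron transcript of 2470 nt, stood at 3.60 TPM in replicate 2 and 2.65 in replicate 1. Sox5-203, Sox5-212, Sox5-209 and Sox5-210 had means between 0.540 and 0.790 TPM.

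Sox6 had long forms only: all 5 annotated transcripts encode between 785 and 827 amino acids. Sox6-204, of 787 amino acids, stood at 5.79 TPM in replicate 2 and 5.01 in replicate 1, and held 46.2 ± 0.170% of the Sox6 TPM. Sox6-203, of 827 amino acids, stood at 4.19 TPM in replicate 2 and 3.77 in replicate 1, and held 34.1 ± 1.09%. Sox6-202, of 785 amino acids, stood at 1.94 TPM in replicate 2 and 1.71 in replicate 1. Sox6-205 and Sox6-201 had means of 0.405 and 0.0800 TPM. In contrast to the Sox5 forms, the shares of the 3 leading Sox6 forms were within 2 percentage points of each other in the libraries.

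Sox9 has a single annotated transcript, Sox9-201, which encodes 507 amino acids. The full form of Sox8, Sox8-201 with 464 amino acids, stood at 8.67 TPM in replicate 2 and 10.3 in replicate 1, which was 82.6 ± 5.43% of the gene. Sox8-202, of 221 amino acids and without the last coding exon, stood at 1.36 TPM in replicate 2 and 2.77 in replicate 1, and the incomplete Sox8-203 was listed at 0 in both. Over the 23 transcripts of the 4 genes, 3 were at 0 in both libraries and 21 had credibility intervals that overlapped between them, the exceptions being Sox9-201 and Sox8-201. No label or header names the probability these intervals cover.

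**Figure D2:**
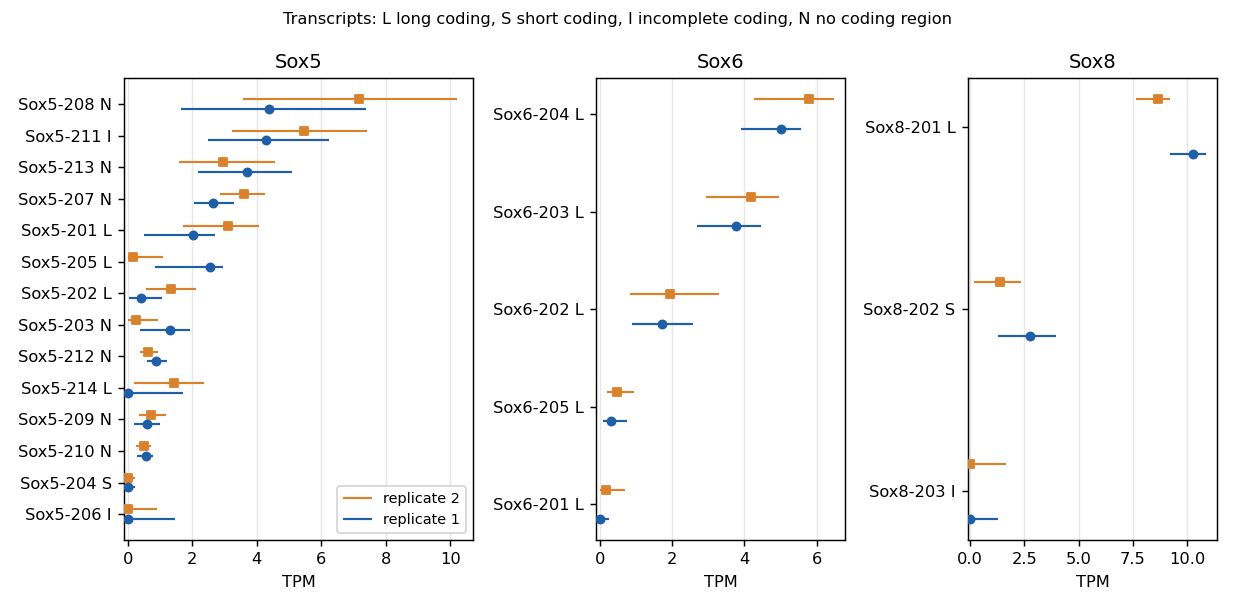
TPM (horizontal axis) of each annotated transcript of Sox5, Sox6 and Sox8 in each library, with points for the deposited TPM and lines for the deposited credibility interval; letters give the coding class. Sox5 spreads over many transcripts led by the fragment Sox5-208, whereas Sox6 is led by Sox6-204 and Sox6-203 and Sox8 by Sox8-201.

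Sox5 and Sox6 are long genes, of 954 kb and 568 kb, with several starts. When starts within 1 kb were grouped, the second Sox5 start, 572 kb inside the gene, is the start of all 4 long forms and held 72.9 ± 0.437% of the Sox5 expected counts. It stood at 9.56 TPM in replicate 2 and 9.23 in replicate 1. The start 578 kb inside the gene, from which Sox5-208 and Sox5-207 are annotated, stood at 10.8 TPM in replicate 2 and 7.02 in replicate 1. The internal start 835 kb inside the gene, whose window is printed above, stood at 5.75 TPM in replicate 2 and 5.61 in replicate 1, of which Sox5-211 held most. The first annotated start stood at 1.36 TPM in replicate 2 and 1.48 in replicate 1.

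For Sox6, the first annotated start, that of Sox6-204, held 60.4 ± 0.604% of the expected counts. The start 7.70 kb inside, that of Sox6-202 with the CG-richer window, held 20.7 ± 0.552%. The start 193 kb inside, that of Sox6-203 with 2 CG dinucleotides in its window, held 15.2 ± 0.582% of the counts but 34.1 ± 1.09% of the TPM, because this model is shorter, at 2825 nt against 8079 nt for Sox6-204. TPM assigned to a start rests on the transcript models and does not measure initiation at that start.

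**Figure D3:**
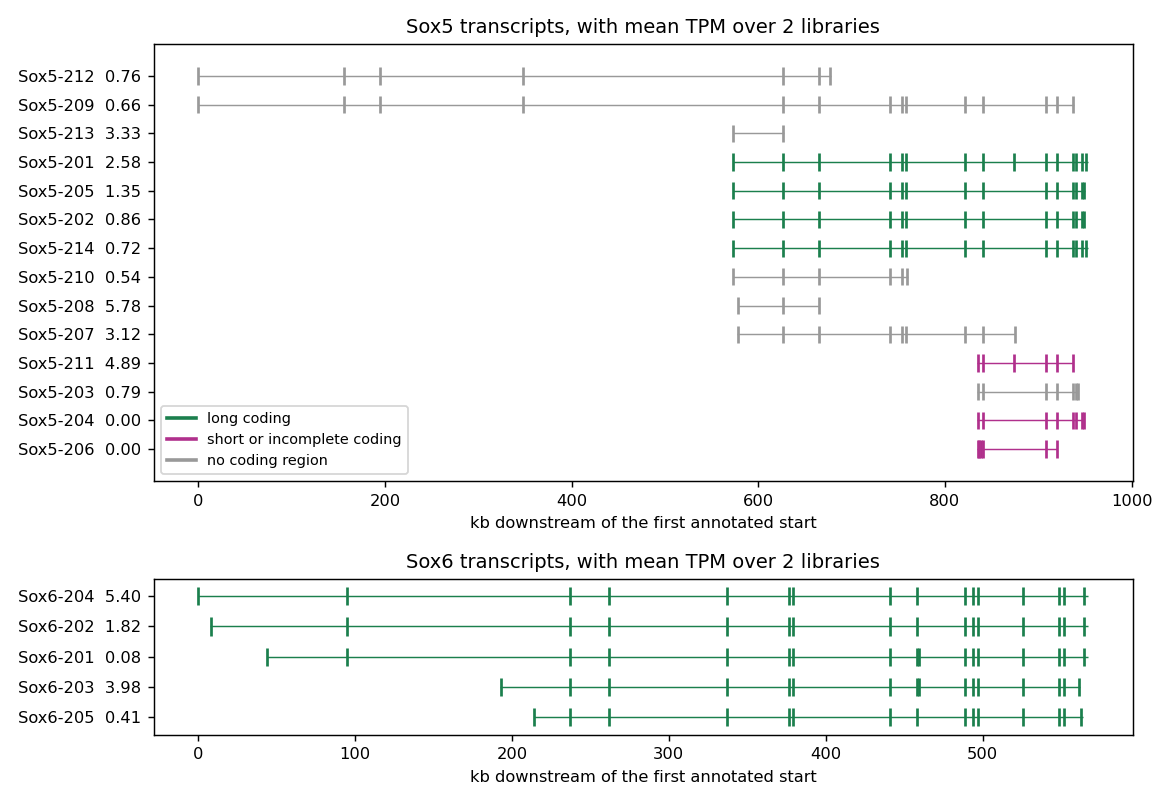
Annotated Sox5 and Sox6 transcripts drawn to scale in kb downstream of the first annotated start (horizontal axis), with thin lines for introns, ticks at exon centres and the mean TPM over 2 libraries beside each name. The long Sox5 forms share the start at 572 kb, the short form Sox5-204, listed at 0, starts at 835 kb, and the 5 Sox6 transcripts differ mainly in their start.

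The internal coding exons printed above were included in part of the long forms. Among the long Sox5 forms, Sox5-201 alone includes the 147 nt exon, and its inclusion was 51.4% in replicate 2 and 40.8% in replicate 1, a mean of 46.1 ± 7.46%. By posterior mean TPM it was 49.1% in replicate 2 and 34.7% in replicate 1. This value rests on how TPM divides among the 4 long Sox5 forms, which was not resolved at this depth. The incomplete fragment Sox5-211 also holds this exon and is not counted here. Among the Sox6 forms, Sox6-203 and Sox6-201 include the 123 nt exon, with an inclusion of 34.6% in replicate 2 and 34.9% in replicate 1, a mean of 34.7 ± 0.190%. The Sox6 value rests almost wholly on Sox6-203, so in these models it cannot be told apart from the use of the start of that transcript. Both values are shares of TPM over annotated forms, not counts of reads across exon junctions.

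Annotated genes inside Sox5 and Sox6 were close to 0, while neighbours of Sox6, Sox8 and Sox9 had their own signal. Inside Sox5, the antisense genes Sox5os1 to Sox5os5 and the intronic gene Sox5it had means of at most 0.125 TPM, and Sox6os, antisense to Sox6, stood at 0.350 ± 0.0849 TPM. The sources used here do not give the strand of the libraries, so reads of overlapping antisense genes cannot be told apart from those of the Sox genes by strand. At Sox8 the antisense gene 2810468N07Rik, which overlaps it, stood at 5.26 TPM in replicate 2 and 5.99 in replicate 1, and reads in the overlap cannot be assigned with certainty. At Sox9, BC006965 starts 0.248 kb away on the opposite strand and stood at 7.10 TPM in replicate 2 and 4.38 in replicate 1. With the two-sided exact binomial test described below its difference was not called (adjusted p = 0.353). The nearest protein-coding genes of Sox9 lie far off, Slc39a11 at 457 kb and Kcnj2 at 1705 kb, with 20.6 and 0.440 TPM in replicate 2 against 18.8 and 0.690 TPM in replicate 1. Close to Sox6, 1110004F10Rik starts 0.601 kb away on the opposite strand and stood at 220 ± 7.76 TPM, far above Sox6 itself. Lmf1, 8.40 kb from Sox8, stood at 23.0 ± 0.707 TPM. Of the other genes near them in the tables, Gm4353 stood at 0.940 ± 0.170 TPM and 1700003G18Rik, Gm22792, Sstr5, Gm11681 and 4933434M16Rik at 0.0450 TPM or less. Gm44068, Gm45025 and the AC131323 genes near Sox8, which are in the later annotation, were not analysed here.

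The libraries differed in all 4 genes by more than counting error. A two-sided exact binomial test of the counts, given library sizes normalized by TMM (a trimmed mean of ratios), with Benjamini-Hochberg adjustment over 19153 genes, called 3 of the 4 higher and 1 lower in replicate 2. It called 27.0% of all genes, 12.4% as higher and 14.6% as lower, and 36.9% of the genes with 500 or more counts in both libraries, which is the depth of these 4. Since the test covers counting error alone, a call does not show a difference beyond the spread of replicates. In edgeR's exact test the typical spread of these libraries counts as error. With this exact test 0 of the 4 were called at an adjusted p of 1.0 each, against 0.861% of all genes. That spread was estimated from the same 2 libraries that are tested, so a lack of calls here or below does not show that they agree.

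Sox9 had 8808 counts in replicate 2 and 7013 in replicate 1, a log2 difference of 0.35 with a 95% exact interval from 0.30 to 0.40 (adjusted p = 9.19e-50, binomial). Sox5 had 1353 counts in replicate 2 and 1220 in replicate 1, a log2 difference of 0.17 with an interval from 0.06 to 0.28 (adjusted p = 0.0146, binomial). Sox6 had 1654 counts in replicate 2 and 1510 in replicate 1, a log2 difference of 0.15 with an interval from 0.05 to 0.25 (adjusted p = 0.0155, binomial). The 3 genes of the Sox trio were thus all higher in replicate 2. Sox8 went the other way, with 564 counts in replicate 2 and 738 in replicate 1, a log2 difference of −0.37 with an interval from −0.53 to −0.21 (adjusted p = 6.47e-05, binomial). The directions and the calls held when libraries were scaled by spike-in counts, by total counts or by DESeq2 size factors. None of the 4 reached 1.5-fold in TPM, which 7.54% of genes with a mean of 1 TPM did. Intervals cover counting error only. Of the 16 Sox genes tested, 7 were called higher in replicate 2 and 3 lower by the binomial test. Over all genes tested the shares were 12.4% and 14.6%, and at 500 or more counts in both libraries 17.0% and 19.8%. The others called were Sox11, Sox4, Sox12 and Sox13 as higher and Sox10 and Sox15 as lower. With edgeR's exact test the smallest adjusted p among the Sox genes was 0.099, for Sox15.

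The cartilage matrix genes known as targets of Sox9 and the SoxD pair were all present. All 18 on the list reached 1 TPM in both libraries, with a summed 1814 TPM in replicate 2 and 1861 in replicate 1. Col2a1, the main cartilage collagen, stood at 587 TPM in replicate 2 and 584 in replicate 1. Of the minor collagens of the same fibrils, Col9a3 stood at 277 ± 14.0, Col11a1 at 130 ± 2.76, Col9a1 at 112 ± 6.19, Col9a2 at 66.1 ± 1.90 and Col11a2 at 58.3 ± 0.792 TPM. The matrilins Matn1 and Matn3 stood at 76.9 ± 13.8 and 24.8 ± 2.19 TPM, and Cnmd, an inhibitor of vessel growth, at 142 ± 16.6 TPM. The proteoglycan genes Acan, Epyc and Snorc stood at 31.8 ± 2.79, 24.6 ± 6.96 and 47.6 ± 8.76 TPM, and Hapln1, which links aggrecan to hyaluronan, at 39.0 ± 2.72 TPM. Mia stood at 116 ± 5.60, the ubiquitin ligase gene Wwp2 at 72.4 ± 10.2, Comp at 26.7 ± 4.86, the chondroitin sulfotransferase gene Chst11 at 4.24 ± 0.368 and Ucma at 2.89 ± 0.474 TPM.

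These matrix genes did not move between the libraries as the Sox trio did. Over all genes tested, 14.6% were called lower in replicate 2 and 12.4% higher, and at 500 or more counts in both libraries 19.8% and 17.0%. Of the 18 matrix genes, Wwp2 was called higher in replicate 2, 12 were called lower and 5 were not called. Their median log2 difference was −0.20 beside −0.00062 over all genes tested. The largest differences among them were Epyc at −0.67, Snorc at −0.45, Comp at −0.45 and Matn1 at −0.45, each called lower (adjusted p = 3.17e-20, 1.13e-04, 1.46e-14 and 5.11e-33, exact binomial). Wwp2 differed by 0.21 (adjusted p = 3.28e-15, exact binomial). Col2a1 was called lower at −0.07 on the TMM scale although its TPM was slightly higher in replicate 2; the TPM scale as a whole lies 0.078 higher on the log2 scale. The count of lower calls was 13 with DESeq2 size factors, 11 with total counts and 8 with spike-in counts, with 1 to 2 called higher, and none of the 18 was called by edgeR's exact test.

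**Figure D4:**
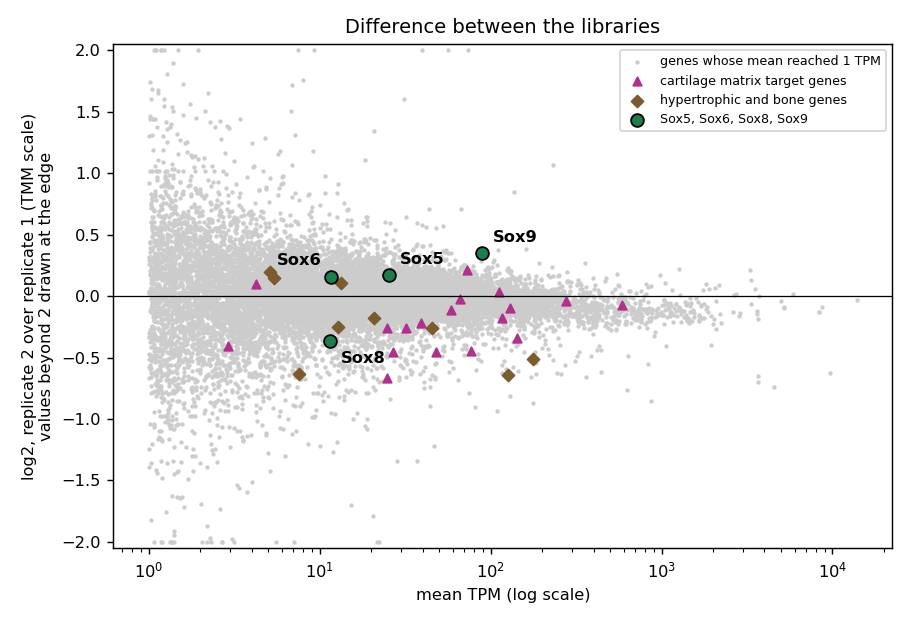
Log2 difference of replicate 2 over replicate 1 on the TMM scale (vertical axis) against mean TPM (horizontal log axis) for genes whose mean reached 1 TPM, with the Sox genes, the cartilage matrix genes and the hypertrophic and bone genes marked. Sox9, Sox5 and Sox6 lie above 0 at 0.35, 0.17 and 0.15, Sox8 lies at −0.37, and most marked matrix genes lie below 0.

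The cofactors and regulators of the Sox genes were all detected, 15 of 15 at 1 TPM or more in both libraries. Among coactivators, the acetyltransferase genes Crebbp, Ep300 and Kat5 stood at 34.6 ± 2.61, 12.6 ± 0.566 and 12.9 ± 0.580 TPM. Arid5b, Arid5a, Zfp219 and Ppargc1a, whose products act with Sox9, stood at 27.9 ± 1.67, 6.60 ± 0.870, 20.9 ± 3.03 and 2.67 ± 0.283 TPM. Of the signalling genes upstream, the BMP receptors Bmpr1a and Bmpr1b stood at 55.2 ± 0.156 and 9.70 ± 1.05 TPM and Fgfr3, the FGF receptor of growing cartilage, at 23.3 ± 2.91 TPM. The PTHrP gene Pthlh and its receptor gene Pth1r stood at 11.2 ± 1.36 and 74.3 ± 1.72 TPM. Ctnnb1, whose product beta-catenin opposes Sox9, stood at 460 ± 12.7 TPM, Gli3, a mediator of hedgehog signalling, at 35.9 ± 5.02 TPM and Nkx3-2, a repressor of chondrocyte maturation, at 4.74 ± 0.544 TPM. Between the libraries 6 of the 15 were called, beside 27.0% of all genes tested and 36.9% of those with 500 or more counts in both libraries. Not all of the 15 reached 500 counts, Ppargc1a being among those below. Of the 6 called, 4 were higher in replicate 2. They were Gli3, Crebbp, Fgfr3 and Zfp219, with log2 differences of 0.15, 0.07, 0.17 and 0.22. Ctnnb1 and Ppargc1a were called lower, at −0.03 and −0.44, Ctnnb1 with TPM higher in replicate 2. The median log2 difference was 0.06, the count called higher ran from 4 to 7 over the scalings, and edgeR's exact test called 0.

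Genes of hypertrophic cartilage and bone, the stage at which Sox9 is switched off, were present at 1 TPM or more in both libraries for 9 of 10. Ibsp and Spp1, of mineralizing matrix, led with 176 ± 36.8 and 126 ± 34.4 TPM. Mef2c, Alpl, Runx2 and Col10a1, the collagen of hypertrophic cartilage, stood at 45.5 ± 2.75, 20.9 ± 0.933, 13.3 ± 1.22 and 12.8 ± 1.07 TPM. The bone factor gene Sp7, the chondrocyte maturation factor gene Runx3 and the hedgehog ligand gene Ihh stood at 7.55 ± 2.04, 5.37 ± 0.778 and 5.10 ± 0.686 TPM, and the collagenase gene Mmp13 at 0.885 ± 0.304 TPM. Of the 10, 7 were called lower in replicate 2 and none higher, beside 14.6% of all genes tested called lower and 12.4% higher. The median log2 difference of the 10 was −0.25. The lower calls numbered 5 to 7 over the scalings, with 1 called higher under spike-in counts, and edgeR's exact test called 0.

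**Figure D5:**
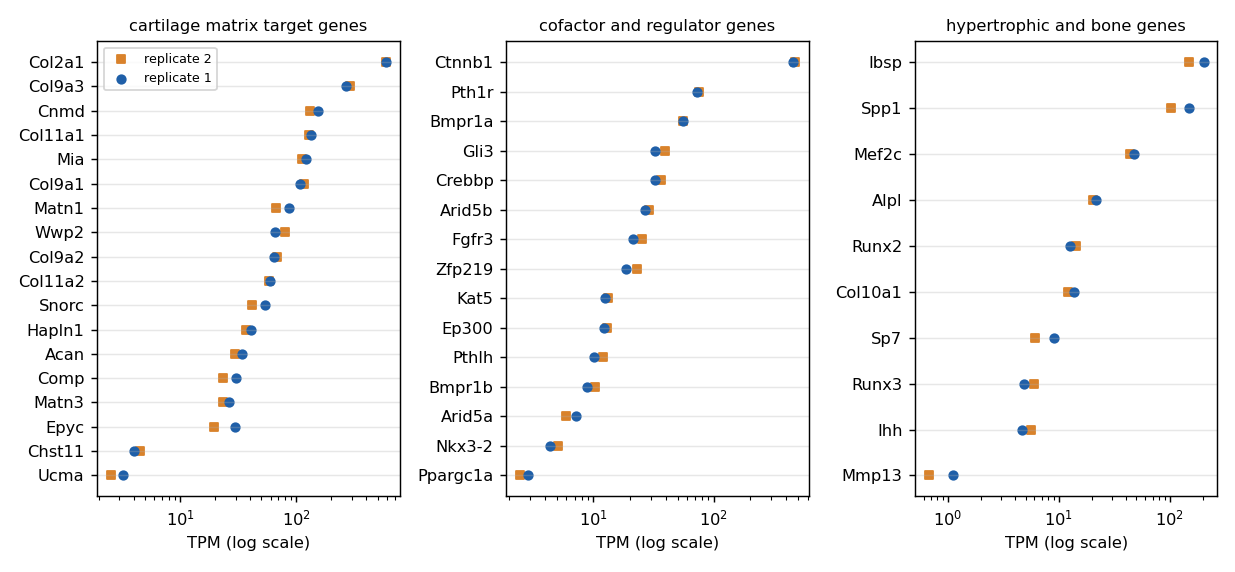
TPM (horizontal log axis) of the cartilage matrix genes, the cofactors and regulators, and the hypertrophic and bone genes in each library, ordered by mean. The libraries nearly coincide for Col2a1 and Ctnnb1, and the replicate 2 points lie left of the replicate 1 points for Ibsp, Spp1, Sp7, Matn1, Snorc and Epyc.

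Markers of other cell types in the limb also differed between the libraries. All 6 red blood cell genes reached 1 TPM, summing to 7473 TPM in replicate 2 and 11082 in replicate 1, with 4 called lower in replicate 2 and none higher. They were led by Hbb-bs, Hbb-bt and Hbb-y at 4544 ± 1465, 3653 ± 1094 and 1036 ± 21.5 TPM. The 6 skeletal muscle genes, led by Tnni1, Myh3 and Myog at 273 ± 64.5, 135 ± 32.8 and 103 ± 17.3 TPM, summed to 521 TPM in replicate 2 and 732 in replicate 1, and all 6 were called lower in replicate 2. The 7 genes of Schwann cells and melanoblasts, led by Erbb3 and Sox10 at 15.6 ± 0.870 and 6.27 ± 0.714 TPM, summed to 33.2 TPM in replicate 2 and 36.1 in replicate 1, with 2 called lower and 5 not called. Of all genes tested, 14.6% were called lower in replicate 2 and 12.4% higher. Of those with 500 or more counts in both libraries, 19.8% were called lower and 17.0% higher. Sox8 shared its direction with 12 of the 18 cartilage matrix genes and 7 of the 10 hypertrophic and bone genes. It was also called in the same direction as the 12 genes called in the red blood cell, skeletal muscle, and Schwann cell and melanoblast lists. Also called lower were 3 of 5 epidermis and hair placode genes, 1 of 4 tendon genes, 2 of 15 cofactors and regulators, and Sox15. The direction of Sox8 was thus not particular to the lists above, and 14.6% of all genes tested shared it. Opposite to Sox8, all 4 limb mesenchyme genes were called higher in replicate 2. They summed to 201 TPM in replicate 2 and 162 in replicate 1. Prrx1, Pitx1 and Tbx5 led them at 94.3 ± 10.3, 56.3 ± 11.5 and 17.6 ± 3.20 TPM. The 4 joint genes, led by Osr2, Gdf5 and Erg at 94.9 ± 14.3, 58.3 ± 12.1 and 15.4 ± 1.47 TPM, summed to 190 TPM in replicate 2 and 151 in replicate 1, with 2 called higher and 2 not called. The Sox trio was called in the same direction as the 4 limb mesenchyme genes and as Osr2 and Gdf5. That direction was shared by Wwp2, by 4 of the 15 cofactors and regulators and by 2 of the 4 tendon genes. Sox11, Sox4, Sox12 and Sox13 shared it as well, so it was not particular to limb mesenchyme and joint genes.

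Of the 4 tendon genes, led by Kera, Tnmd and Scx at 149 ± 17.8, 130 ± 7.15 and 48.3 ± 3.45 TPM, 2 were called higher and 1 lower, with sums of 386 TPM in replicate 2 and 355 in replicate 1. Of 5 epidermis and hair placode genes, led by Krt14, Krt5 and Krt10 at 380 ± 8.61, 161 ± 5.97 and 82.2 ± 20.7 TPM, 1 was called higher and 3 lower, with sums of 609 TPM in replicate 2 and 657 in replicate 1. None of 4 endothelial genes was called, and they were led by Egfl7, Pecam1 and Cdh5 at 81.9 ± 2.43, 30.7 ± 0.665 and 26.2 ± 0.297 TPM and summed to 157 TPM in replicate 2 and 159 in replicate 1. With edgeR's exact test 1 red blood cell gene and 1 muscle gene were called and none in the other marker lists. Over the scalings the red blood cell genes called lower numbered 4 to 5, those of Schwann cells and melanoblasts 1 to 2, those of endothelium 0 to 1 (1 with DESeq2 size factors) and those of epidermis 2 to 3, and the epidermal gene called higher was lost with DESeq2 size factors; the counts of the other marker lists did not change. No marker of these lists was at 0. The part of these cell types in the differences of the Sox genes was not tested, and in bulk tissue fewer cells of a type and less RNA per cell cannot be told apart.

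With 1 group, likeness between genes could be measured only as nearness in level over 2 libraries, among 82 listed genes. Nearest to Sox9 were the joint gene Osr2 and the limb mesenchyme gene Prrx1, at Euclidean distances of 0.172 and 0.202 in log2(TPM + 0.1). Nearest to Sox5 were Fgfr3 and the endothelial gene Cdh5, at 0.176 and 0.196. Nearest to Sox6 were Pthlh and Ep300, at 0.0902 and 0.177, and nearest to Sox8 were Col10a1 and Ep300, at 0.267 and 0.381. Osr2 and Prrx1 stood at 105 and 102 TPM in replicate 2 against 84.8 and 87.0 TPM in replicate 1. Both were picked by these same values, so being higher in replicate 2, as Sox9 was, follows from the choice and is no separate result.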

How the data were processed

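Total RNA of 2 mouse limb libraries was analysed from gene and transcript tables. Expected counts, estimated reads that need not be whole, were deposited by the authors against mm10 with GENCODE M4, per the notes filed with the samples. Per the file headers, the authors also deposited TPM values, the percent of gene TPM in each transcript, lengths, and the signal values that bound a credibility interval of TPM. The sources used here do not give the aligner, the quantification program or the library strand. Spike-ins held 5.20% of counts in replicate 2 and 5.29% in replicate 1 and were left out of library sizes.

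Symbols, positions, exons and coding lengths were matched by identifier to GENCODE M21 on GRCm38, the assembly mm10 names. All 23 transcripts matched, 18 with the deposited length and 5 with another (4 of Sox5, 1 of Sox6). These are Sox5-202, Sox5-204, Sox5-205, Sox5-206 and Sox6-205, whose coding lengths come from models unlike those that were quantified. Counts were rounded, and genes with 10 or more summed counts were tested between libraries with a two-sided exact binomial test on TMM sizes, with Benjamini-Hochberg adjustment at 0.05. edgeR's quasi-likelihood test needs replicated groups and was not run. Its exact test used the common dispersion of these libraries, 0.0130. Ratios used log2(TPM + 0.1), which understates folds of low genes. The binomial test was checked on simulated counts that held counting error alone. This is the error the test assumes, so the check does not cover the spread of replicates. Without molecular identifiers, intervals cover counting error only.

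The genes and lists were chosen with earlier results of these data known. Genes named are the 4 genes and their transcripts, every Sox gene, every member of the matrix, cofactor and hypertrophic lists, the 3 highest of each other list, genes within 100 kb, and the 2 nearest in level; 1 gene so named is not reported here. Alternatives were other minimums, pseudocounts, scalings, coding-length limits and single libraries. Software was Python 3.11.15, numpy 2.4.6, pandas 2.3.3, scipy 1.17.1, matplotlib 3.10.9, R 4.3.3, edgeR 4.0.16 and DESeq2 1.42.0.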

Additional observations from a re-analysis of the deposited data

How the results depend on the processing

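Of 84 alternatives, 64 kept direction and call, or moved a value by less than 1 SD or a count by less than 1.5 times. Among these, the Sox genes at the minimum numbered 11 to 14 against 12, the matrix genes 16 at 5 TPM against 18, and all genes called 4900 to 5920. Some of the 64 could not have come out otherwise. With 2 libraries, a single library always lies within 1 SD of the mean, so ratios and shares without 1 library count as kept by arithmetic. The Sox6 long-form share was bound to stay at 100% at the looser coding limit, with posterior mean TPM and by counts, since all its annotated transcripts are long. The log2 ratio of Sox6 over Sox5 moved from −1.11 to −1.06 with a pseudocount of 1 and to −1.16 with posterior mean TPM, and reversed to 1.07 for long coding forms, 0.11 for counts per kb of the longest transcript and 0.034 without Sox5 transcripts under 700 nt. These leave out or discount short Sox5 models by construction. The ratio of Sox9 over Sox5 plus Sox6 moved from 1.24 to 2.35 and 2.36 under long forms and counts per kb. The long-form share of Sox5 was 10.0% when 95% of the longest coding length was asked for, since Sox5-201 alone then counts, 20.7% with posterior mean TPM and 67.1% as a share of expected counts. That of Sox6 was 84.4% at the 95% limit. Against 4 Sox genes, 5166 of all genes and 12 lower matrix genes called by the binomial test, edgeR's exact test called 0, 165 and 0, and a 1.5-fold limit in TPM marked 0 of the Sox genes and 1154 of all genes. The split of all calls was 2371 higher and 2795 lower in replicate 2, against 3250 and 2188 with total counts and 4090 and 1830 with spike-in counts; the cause was not tested. With each library alone, the ratio of Sox9 over Sox8 ran from 2.53 to 3.33, that of Sox6 over Sox5 from −1.12 to −1.10, that of Sox9 over both from 1.14 to 1.34, and the Sox5 long-form share from 21.3% to 22.1%. No paired analysis was possible because there is 1 group. Low counts limit the Sox5 and Sox8 transcript shares.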
